A study of Rattus norvegicus with 14 samples.

Results

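The proteasome subunit genes were taken as every row of the deposited tables whose gene name is Psm followed by one letter from a to g and a number, which gave 43 of 30562 rows. Of these, 15 encode the 20S core, 2 the immunoproteasome, 17 the 19S regulatory particle, 5 assembly factors, and 4 are activators or an inhibitor. Psmb10, Psmb11, Psmd9, Psmd10 and Psme3 were not analysed here. The names Psmc3ip and Psme3ip1 belong to interacting proteins and Psme1-ps1 to a pseudogene, so none of these entered the group. Reads of Psme1 and its pseudogene may have been split by the quantification; the pseudogene averaged 3.13 TPM, an abundance scaled for transcript length and library size.

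The proteasome degrades proteins tagged with ubiquitin. Its barrel-shaped core holds rings of alpha and beta subunits, and 3 of the beta subunits cut peptide bonds. The 19S particle binds ubiquitin, removes it, unfolds the protein and feeds it into the core. In immune cells, and in other cells exposed to interferon, inducible beta subunits replace the catalytic ones and shift the peptides made toward those presented on class I molecules. In neurons, protein breakdown by this machine takes part in synapse upkeep, axon degeneration and the response to injury.

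The libraries held RNA of lumbar dorsal root ganglia (levels L2-L5) from 7 rats, all male and of genotype WT, whose ages the labels do not give. In each rat an extensor digitorum longus muscle was grafted to the saphenous nerve of one hindlimb, and the other hindlimb was not operated on. The ganglia of the grafted side are called surgical and those of the other side control. Sampling was at 6 weeks for A, B and E and at 8 weeks for C, D, G and H, so there were 3 libraries per side at 6 weeks and 4 at 8 weeks. The control side belonged to operated animals, and no rat without surgery was analysed here. The comparisons ask whether the ganglia upstream of the graft differ from those of the unoperated limb.

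Library totals ran from 18489118 to 28237574 estimated counts. All 16 neuron markers were measured, and their summed level ran from 1896 TPM in the surgical library of rat A to 28367 TPM. Skeletal muscle markers summed to 31486 TPM in the surgical library of rat C and 5958 TPM in the control library of rat H, against a median of 61.0 TPM over all libraries. Among surgical libraries at 6 weeks the muscle sum was 1288 TPM for rat E, beside 41.3 and 119 TPM for B and A. Spinal cord markers summed to 951 TPM in the surgical library of rat B, against a median of 14.2 TPM. These libraries stood apart from the rest of their groups. Some results without rats B, C and H, or without rat E, are given below. In whole ganglia, fewer cells of a type and less RNA per cell cannot be told apart.

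Short stretches upstream of 4 subunit genes are shown because 3 sequence cores tied to proteasome gene control in textbooks were searched there. The searched letters were GAAA, any 2 bases and GAAA for the interferon-stimulated response element (ISRE), TTCNNNGAA for the gamma-activated site (GAS) and TGACNNNGC for the antioxidant response element (ARE), on both strands. Windows were the 250 bases before each gene's start in RefSeq, build GRCr8, and 39 of the 43 genes had one. Psmb8, Psmb9, Psme1, Psme2, Psmb5 and Psmb6 were examined, and each match is printed 5′ to 3′ along the gene's strand, with the matched letters in capitals:
Psmb8, GAS: agctgTTCCCAGAAgatgcccctcgccccg
Psme2, ISRE: cctggagagtGAAAGCGAAAgctggggctg
Psmb5, ARE: cgtgaagctgTGACGTCGCggcgttgcccg
Psmb6, ARE: ctaaagagagTGACGGAGCgctttacgacc
The stretch of Psmb8, an inducible catalytic subunit, lies at chr20:4657252-4657281 on the minus strand, and its match begins 245 bases before the start. For Psme2, a subunit of the interferon-inducible activator, the stretch is chr15:33052785-33052814 on the minus strand, with its match 53 bases before the start. The stretch of Psmb5, the constitutive counterpart of Psmb8, is chr15:32047420-32047449 on the minus strand, with its match 60 bases before the start. That of Psmb6, the constitutive counterpart of Psmb9, is chr10:55737854-55737883 on the plus strand, with its match 24 bases before the start. The Psme2 and Psmb6 stretches lie within the annotated span of their genes, which begins before the start used for the window. Over all 33469 promoter windows, 3.41% held the ISRE core, 7.67% the GAS core and 10.1% the ARE core. Among the 39 subunit genes the shares were 10.3%, 10.3% and 15.4%, which are 4, 4 and 6 genes. Besides Psme2, the ISRE core lay in Psma4, Psmb3 and Psmd7, and besides Psmb8, the GAS core in Psmc6, Psmd3 and Psmd7. These are all core or regulatory genes. The ARE core also lay in Psma3, Psmb2, Psmd1 and Psme4. Psmb9 and Psme1 held none of these letters in their windows.

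Core subunit genes were the most abundant. Their mean level over the 14 libraries ran from 40.4 TPM for Psma1, an alpha ring subunit, to 318 TPM for Psmb4, a beta subunit without catalytic activity, with a median of 209 TPM when the testis-specific alpha subunit Psma8 is left out. Regulatory genes ran from 38.8 TPM for Psmd11, a lid subunit, to 243 TPM for Psmc5, an ATPase of the base, with a median of 98.2 TPM. The inducible Psmb8 and Psmb9 averaged 35.7 and 30.6 TPM. Activators ran from 17.1 TPM for Psme4, the large nuclear activator, to 97.4 TPM for Psme1, the partner of Psme2. Assembly factors ran from 19.01 TPM for Psmg2 to 66.5 TPM for Psmg3, both chaperones of early core assembly. Psma8 did not pass the filter on low counts, which left 42 tested genes.

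**Figure D1:**
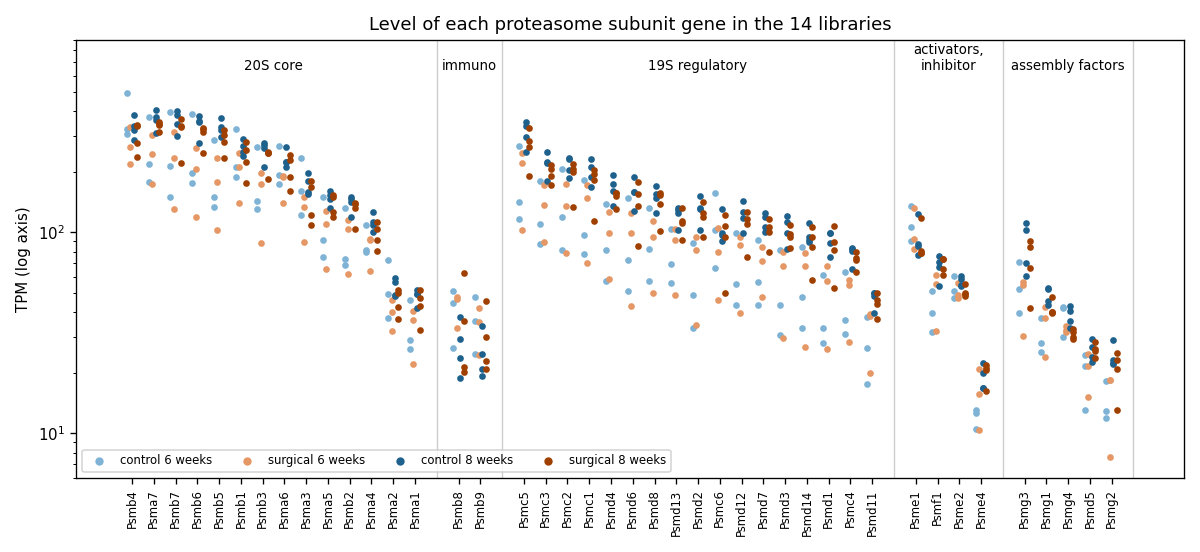
Level of the 42 tested subunit genes in TPM, on a log axis, by class, with genes sorted by mean level within a class. Each point is 1 of 14 libraries, coloured by side and time. Core genes reach 318 TPM on average (Psmb4), and the inducible Psmb8 and Psmb9 lie near 35.7 and 30.6 TPM.

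The subunit genes varied little between libraries, with the inducible ones apart. Variation was taken as the SD of log2 CPM, the count scaled for library size, over the 14 libraries. The median SD was 0.27 over the 42 genes and 0.48 over all genes tested. Genes matched for level were not compared, so the part of expression level in this gap was not tested. Psmb8 and Psmb9 had the largest SDs of the group, 0.74 and 0.72, followed by Psme1 at 0.57. The smallest was 0.11, for Psmg1, which pairs with Psmg2 in core assembly. Across the 14 libraries, regulatory genes tracked one another with a median pairwise Pearson r of 0.87, and core genes with 0.54. Psmb8 tracked Psmb9 at r = 0.99 and Psme1 at 0.92, and ran against Psmb5 at −0.65. These correlations are descriptions: both libraries of a rat enter, and the libraries share tissue makeup and scaling.

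At 6 weeks the core genes were lower on the surgical side than on the control side, in a comparison in which no gene of the table passed the threshold. The fitted log2 difference was negative for 14 of 14 core genes, with a median of −0.40, against −0.01 over all 17035 genes tested. Both inducible genes were also negative (median −0.26), as were 14 of 17 regulatory genes (median −0.11) and 5 of 5 assembly factors (median −0.26). Of all genes tested, 51% were negative. The inducible value rested on rat B: by rat the class was at 0.29 in A, −1.01 in B and −0.06 in E, and without rat B its median was 0.12. With all rats the inducible median was −0.00028 with the length trend removed. On the log2(TPM + 1) scale it was 0.0090, where the median of all genes was 0.16. The regulatory median was −0.0085 without rat A and −0.28 without rat B, against −0.37 to −0.50 for the core median when any 1 rat was left out.

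Markers of other tissue moved in the same comparison. Spinal cord markers had a median log2 difference of 2.47 (0 of 9 negative, 4 of them at an unadjusted p under 0.05), skeletal muscle markers 1.59 (0 of 10 negative) and neuron markers −0.22 (14 of 16 negative). The rats differed. From control to surgical side, mean spinal cord log2 CPM went from 1.40 to 6.32 in B, 0.47 to 1.08 in A and −0.58 to 0.44 in E. Muscle went from 1.32 to 6.71 in E, 3.38 to 3.73 in A and 1.47 to 1.24 in B. Neuron markers went from 7.90 to 6.09 in A, 6.84 to 8.15 in B and 8.89 to 8.87 in E. The core median was −0.39 with neuron markers as a covariate and −0.51 without rats B, C and H, which kept only A and E. The part of spinal cord or muscle RNA in the core difference was not tested beyond these values.

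Psmb4 showed the largest core difference. Its log2 CPM on the control side at 6 weeks was 8.53 in rat A, 8.65 in rat B and 8.70 in rat E, and on the surgical side 8.01, 7.79 and 8.04. The groups did not overlap, and each rat was lower on the operated side. The fitted log2 difference was −0.68 (SE 0.17, n = 3 rats; edgeR adjusted p = 0.999).

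Psma2, an alpha ring subunit, had the smallest p of the group. Its control values were 7.67, 7.48 and 7.79 log2 CPM in rats A, B and E, and its surgical values 7.12, 6.93 and 7.05. The groups again did not overlap. The fitted log2 difference was −0.61 (SE 0.15, n = 3 rats; edgeR unadjusted p = 0.0039, adjusted p = 0.999).

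The constitutive catalytic genes showed the same order of sides in these rats. Psmb6, the caspase-like subunit, measured 7.15, 7.17 and 7.69 log2 CPM on the control side of rats A, B and E and 6.48, 6.78 and 7.04 on the surgical side. Its fitted log2 difference was −0.57 (SE 0.15), with an edgeR adjusted p of 0.999. Psmb5, the chymotrypsin-like subunit, measured 6.99, 7.03 and 7.51 log2 CPM on the control side and 6.51, 6.80 and 7.12 on the surgical side. Its 2 groups overlapped, because rat E stood above the other rats on both sides, while each rat was lower on the surgical side. Psmb7, the trypsin-like subunit, was at 7.97, 7.66 and 8.43 on the control side and 7.33, 7.67 and 8.01 on the surgical side, so rat B was level between its sides.

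No subunit gene passed an adjusted p of 0.05 at 6 weeks by edgeR with Benjamini-Hochberg adjustment, and 0% of all genes tested did. At an unadjusted p under 0.05 there were 10 subunit genes, all lower on the surgical side, of which 8 were core genes, and the background in that direction was 2.11% of all genes. The other 2 were Psmc6, an ATPase of the regulatory base, with a log2 difference of −0.75 (SE 0.27), and Psmg3 with −0.43. Without rat E 4 subunit genes had such a p, without rat A 6, and without rats B, C and H 13, all lower. The last fit kept only rats A and E at 6 weeks. Upward, Psme4 (0.12) and Psmd2 (0.08) had the smallest p-values, and both changed sign without rat B (−0.020 and −0.21). Surgical libraries lay wholly below control libraries for 12 subunit genes, 10 of them core genes, against 4.67% of all genes. DESeq2 called 4 of 42 subunit genes, the core genes Psma2, Psmb1, Psmb4 and Psmb6, all lower, beside 44 of 17035 genes tested (39 lower). Its adjusted p was 0.00047 for Psma2 and 0.039 for Psmb1.

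Subunit genes have short transcripts, and length moved with this comparison. By the ratio of count to TPM, 36 of 42 subunit genes were below the median length of all genes, and core genes lay at a median percentile of 10.4. The rank correlation of each gene's deviation from its mean level with its length was between −0.22 and −0.18 in the 3 control libraries at 6 weeks and between −0.07 and 0.18 in the other 11 libraries. Across 15910 genes with a length, the 6-week log2 difference followed length with a Spearman rho of 0.40. With the length trend removed, the core median was −0.19, 12 of 14 core genes stayed negative, and 2 subunit genes had an unadjusted p under 0.05. Psma2, at the 70.4th length percentile, then had a log2 difference of −0.70 (SE 0.15; edgeR adjusted p = 1.00). Other core genes named at 6 weeks were weaker than in the main fit: Psmb4 at −0.45, Psmb1 at −0.30, Psmb6 at −0.25 and Psmb5 at −0.08. On the TPM scale, where the median of all genes was 0.16 (log2), the core median was −0.19 and the regulatory median turned positive, at 0.11. The part of transcript length or RNA quality in the 6-week difference beyond these values was not tested.

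**Figure D2:**
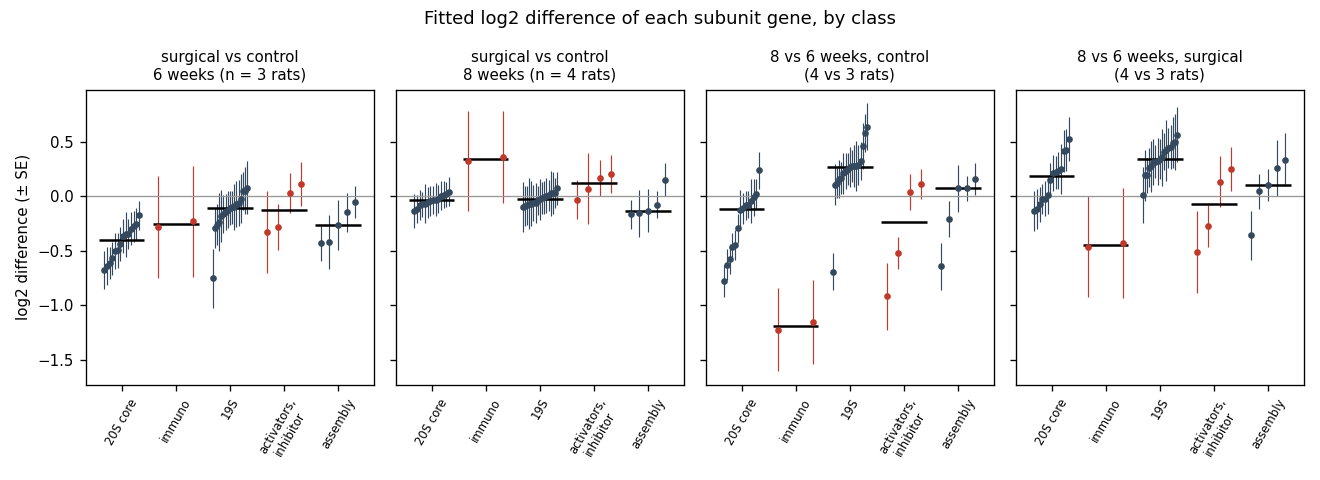
Fitted log2 difference of the 42 tested subunit genes in 4 comparisons, by class. Points are genes, bars their SE and black lines class medians. Core genes sit below 0 at 6 weeks (median −0.40) and near 0 at 8 weeks (−0.04), and Psmb8 and Psmb9 sit lowest for control ganglia at 8 against 6 weeks (−1.16 and −1.22).

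At 8 weeks the core and regulatory genes stood near the same level on both sides. The median log2 difference was −0.04 for core and −0.03 for regulatory genes, against 0.01 over all genes. Their gene values ran from −0.14 to 0.04 for core and from −0.10 to 0.07 for regulatory genes. No subunit gene reached an unadjusted p under 0.05, where the background was 1.06% of all genes, and 0% passed after adjustment. Psmb4 measured 7.89, 7.77, 8.02 and 7.73 log2 CPM on the control side of rats D, C, G and H, and 7.71, 7.78, 7.97 and 7.83 on the surgical side. The sides overlapped fully. By unadjusted p, Psmg3 (−0.17) and Psma2 (−0.11) led downward and Psme4 (0.21) and Psmf1 (0.17), the inhibitor, upward, with edgeR adjusted p-values of 1.00.

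Psmb8 and Psmb9 had positive fitted differences at 8 weeks, 0.32 and 0.36, with a spread between rats far wider than that. The surgical minus control value of the class, the median of the log2 differences of Psmb8 and Psmb9, was 1.80 in rat C, 0.67 in rat G, −0.23 in rat D and −0.83 in rat H. Psmb8 measured 4.50, 3.79, 4.06 and 4.76 log2 CPM on the control side of rats D, C, G and H and 4.04, 5.70, 4.75 and 3.97 on the surgical side. The highest of these is the surgical library of rat C, which also held the most muscle marker RNA and a macrophage marker sum of 406 TPM, against 160 TPM in the lowest library of its group. Without rat C the median of the inducible genes was −0.13. With macrophage markers as a covariate Psmb8 was at −0.02. Psmb8 followed that covariate with r = 0.98 over the 14 libraries, so the fit cannot separate the 2. The part of macrophage RNA in this difference was not tested.

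The 6-week and 8-week side differences themselves differed by a median of 0.39 for core genes (0 of 14 negative), 0.60 for the inducible genes and 0.11 for regulatory genes, against 0.05 for all genes, of which 45.3% were negative. Leaving out 1 rat, the inducible value ran from 0.12 (without rat C) to 1.00 (without rat H), and was 0.23 without rat B. The regulatory value turned to −0.085 without rat A, was 0.03 without rat H and 0.27 without rat B, and stood at −0.25 on the TPM scale. With macrophage markers as a covariate the inducible value was 0.14. At an unadjusted p under 0.05 there were 3 subunit genes, all higher at 8 weeks, against 0.839% of all genes in that direction. These were Psmb4 (0.64, SE 0.23), Psmb6 (0.54, SE 0.20) and Psma2 (0.50, SE 0.20), and edgeR adjusted p-values were 1.00. Without rat E, G or H the count of such subunit genes was 0, without rat C 7, and without rats B, C and H 5. Psmd1 and Psmd2, the scaffold subunits of the regulatory base, had values of −0.08 and −0.05 and changed sign under several settings. None passed after adjustment, where the background was 0% of all genes. With the length trend removed the core median was 0.16, and on the TPM scale it was 0.02 while the median of all genes was −0.24.

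Over both times, 14 of 14 core genes and 13 of 17 regulatory genes were negative, with medians of −0.20 and −0.07, and the inducible genes had a median of 0.07; of all genes, 49.9% were negative. By rat, the core median was −0.50 in A, −0.31 in B, −0.46 in E, −0.07 in D, −0.13 in C, 0.00085 in G and 0.06 in H. The 3 rats at 6 weeks had the 3 lowest values. There were 3 subunit genes with an unadjusted p under 0.05, all lower, against 1.46% of all genes in that direction: Psma2 (−0.33, SE 0.12), Psmg3 (−0.28, SE 0.11) and Psma3 (−0.35, SE 0.14). The count of such subunit genes was 0 without rat A or without rat E, and 1 without rats B, C and H. None of the 42 passed by edgeR after adjustment (adjusted p = 1.00 for each), and 0% of all genes did. Psme4 and Psmf1 led upward with 0.17 and 0.11.

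**Figure D3:**
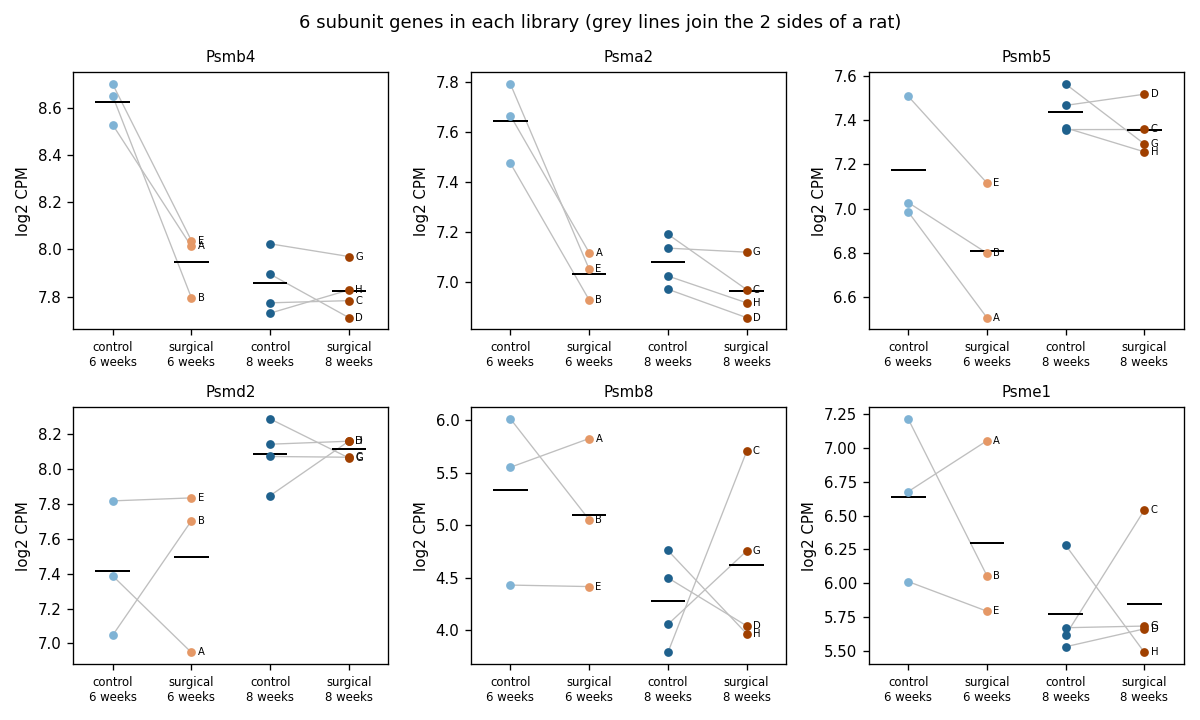
Level in log2 CPM of 6 subunit genes in each library, by side and time. Points are libraries, black bars group means, and grey lines join both sides of a rat, with its letter. Psmb4 and Psma2 stand highest in the 3 control libraries at 6 weeks, and Psmb8 spans 4.43 to 6.01 among those same libraries.

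Between 6 and 8 weeks the control ganglia, which came from different rats, differed in opposite ways by class. The inducible genes had lower counts at 8 weeks (median −1.19), core genes were slightly negative (median −0.12, 12 of 14), and regulatory genes positive (median 0.27, 16 of 17), against −0.06 for all 16346 genes, of which 53.5% were negative. The control libraries at 6 weeks also entered the 6-week comparison of sides, so the core values of the 2 comparisons are not independent. The core direction depends on scaling: the median was 0.07 with the length trend removed, and 0.52 on the TPM scale, where the median of all genes was 0.45. Relative to all genes on that scale, the medians were 0.08 for core, −0.98 for inducible and 0.44 for regulatory genes.

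No subunit gene passed after adjustment in control ganglia, where 0.153% of all genes did. At an unadjusted p under 0.05 there were 13, 11 of them lower and 2 higher, which is 31.0% of the 42, beside 31.2% of all genes (17.4% lower and 13.9% higher). The share of subunit genes was thus near that of all genes. Without rats B, C and H, 6 subunit genes had such a p, all lower. Groups did not overlap for 9 lower and 3 higher subunit genes, against 12.7% and 12.2% of all genes. DESeq2 called 12 of 42 subunit genes, Psmd1 and Psmd2 higher and the others lower, beside 3096 of 16346 genes tested (1539 higher and 1557 lower).

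Psmb4 and Psma3 had the smallest p-values. Psmb4 was at 8.53, 8.65 and 8.70 log2 CPM at 6 weeks and between 7.73 and 8.02 at 8 weeks, without overlap (log2 difference −0.78, SE 0.15; edgeR adjusted p = 0.078). Psma3, an alpha ring subunit, was at 7.66, 7.46 and 7.66 at 6 weeks and 6.78, 7.15, 6.97 and 6.96 in rats D, C, G and H. Its log2 difference was −0.63 (SE 0.14; edgeR adjusted p = 0.088). On the TPM scale it was 0.05, where the median of all genes was 0.45. Psmb5 stood at 0.24, on the other side of 0 from Psmb4, so core genes did not differ alike.

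Psmd2 and Psmd1 led the regulatory genes upward. Psmd2 was at 7.39, 7.05 and 7.82 log2 CPM in rats A, B and E and 8.14, 8.07, 8.29 and 7.85 in rats D, C, G and H, so that every value at 8 weeks lay above those at 6 weeks. The log2 difference was 0.64 (SE 0.22; edgeR adjusted p = 0.12). Psmd1 was at 6.998, 6.95 and 7.45 against 7.72, 7.81, 7.83 and 7.55, also without overlap (0.58, SE 0.17; edgeR adjusted p = 0.11). The regulatory median was 0.48 without rat E and 0.17 without rat B.

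Psmb8 was at 5.55 in rat A, 6.01 in rat B and 4.43 in rat E on the control side at 6 weeks, against 4.50, 3.79, 4.06 and 4.76 at 8 weeks. Rats A and B were high and rat E lay within the range at 8 weeks, so the groups overlapped. The log2 difference was −1.16 (SE 0.38; edgeR adjusted p = 0.12), and that of Psmb9 was −1.22 (SE 0.38; edgeR adjusted p = 0.12). The activator genes Psme1 and Psme2 were at −0.92 (SE 0.31) and −0.52 (SE 0.15). On the TPM scale Psme2 was at 0.11, where the median of all genes was 0.45. Without rat E, 20 of 42 subunit genes passed, beside 6388 of 16676 genes tested (3861 higher and 2527 lower). In that fit 26 subunit genes had an unadjusted p under 0.05, 11 of them lower, and the inducible median was −1.44. Without rat B the inducible median was −0.74 and no subunit gene passed.

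In surgical ganglia 17 of 17 regulatory genes had positive differences between 6 and 8 weeks, with a median of 0.34, against 0.01 for all 16606 genes, of which 49.5% were negative. Core genes had a median of 0.18 (9 of 14 positive) and the inducible genes −0.45. In the same comparison neuron markers had a median of 0.86 (0 of 16 negative), myelinating Schwann cell markers −1.09 (7 of 7 negative) and spinal cord markers −6.05 (9 of 9 at an unadjusted p under 0.05, lower). Macrophage markers were at −0.73 and T, B and NK cell markers at −0.53 (9 of 10 negative in each). Skeletal muscle markers were at 4.16 (0 of 10 negative), with sums at 8 weeks from 15.6 to 31486 TPM (median 86.3). The spinal cord mean of the surgical libraries at 6 weeks was 6.32 log2 CPM in rat B, beside 1.08 in A and 0.44 in E. With neuron markers as a covariate the regulatory median was 0.09, the core median 0.0083 and the inducible median 0.31, with the sign turned, and 0 subunit genes had an unadjusted p under 0.05. The inducible median ran from −0.90 without rat C to −0.0028 without rat A, and the regulatory median was 0.20 without rat A. The part of cell makeup was not tested beyond these fits. At an unadjusted p under 0.05 there were 3 subunit genes, Psmb5, Psmd4 and Psmc4, all higher at 8 weeks, against 1.68% of all genes in that direction. The count was 8 without rat E, 1 without rats B, C and H, and 0 without rat A, B, D, G or H. Groups did not overlap for 13 subunit genes, all higher and 9 of them regulatory, against 5.12% of all genes. After adjustment none passed, with 0% of all genes.

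Psmb5 on the surgical side was at 6.51, 6.80 and 7.12 log2 CPM in rats A, B and E and at 7.52, 7.36, 7.29 and 7.26 in rats D, C, G and H, without overlap. Its log2 difference was 0.52 (SE 0.21; edgeR adjusted p = 0.67). Psmd4, a ubiquitin receptor of the 19S particle, was at 6.40, 6.66 and 6.92 at 6 weeks and 7.18, 7.21, 7.10 and 7.01 at 8 weeks (0.44, SE 0.19; edgeR adjusted p = 0.67). Both genes were lowest in rat A, whose surgical library had the lowest neuron marker sum. Downward, Psmg4, another core assembly chaperone, was at −0.36 and Psme2 at −0.27. On the TPM scale Psme2 was at 0.0055, where the median of all genes was 0.21. Psmd14, the deubiquitinase of the 19S lid, was at 5.44, 6.25 and 6.39 at 6 weeks and 6.42, 6.17, 6.57 and 6.58 at 8 weeks, with rat C below the other rats of its group.

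The inducible subunits made up a variable amount relative to their constitutive counterparts. Psmb8, as a percent of Psmb5 in TPM, was 29.8, 38.4 and 9.18% in control ganglia of rats A, B and E, and 46.6, 26.3 and 14.3% in their surgical ganglia. At 8 weeks it was 8.83, 5.81, 6.43 and 12.8% in control ganglia of rats D, C, G and H, and 6.20, 26.8, 12.9 and 7.05% in surgical ganglia. Rats A and B were high on both sides, and the surgical side was higher in 4 of 7 rats. Psmb9 relative to Psmb6 ran from 5.41% in the control library of rat C to 35.2% in the surgical library of rat A.

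Cell type markers moved with some of the subunit genes across libraries. Psmb8 followed the mean of 10 macrophage markers with Pearson r = 0.98 over 14 libraries. For T, B and NK cell markers its r was 0.95, for red blood cell markers 0.91 and for neuron markers −0.87. Red blood cell marker sums ran from 15122 to 96560 TPM over the libraries. Psmd2 followed neuron markers with r = 0.94, and Psmb5 with 0.82. The core genes Psmb4 and Psma2 were at −0.35 and −0.25 with neuron markers and at 0.35 and 0.26 with macrophage markers. The 14 libraries came from 7 rats and share their makeup, so no test is given. Macrophage marker sums ran from 243 to 457 TPM in control and 187 to 408 TPM in surgical ganglia at 6 weeks, and from 163 to 303 and 160 to 406 TPM at 8 weeks. Neuron markers in control ganglia were at a median log2 difference of 0.74 between 6 and 8 weeks (0 of 16 negative), macrophage markers at −1.23 (10 of 10 negative) and myelinating Schwann cell markers at −1.05 (7 of 7 negative). T, B and NK cell markers were at −1.28 (10 of 10 negative). Skeletal muscle markers were at 4.56 (0 of 10 negative), with sums at 8 weeks from 36.0 to 5958 TPM (median 52.6). With macrophage markers as a covariate, the inducible median between times in control ganglia was −0.03. With neuron markers as a covariate, it was −0.17 and the regulatory median −0.05. Psmb8 and Psmb9 followed the macrophage mean with r = 0.98 and 0.99, and both covariates shifted between the times. These fits therefore cannot separate marker level from time, and the part of cell makeup in the subunit differences was not tested.

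**Figure D4:**
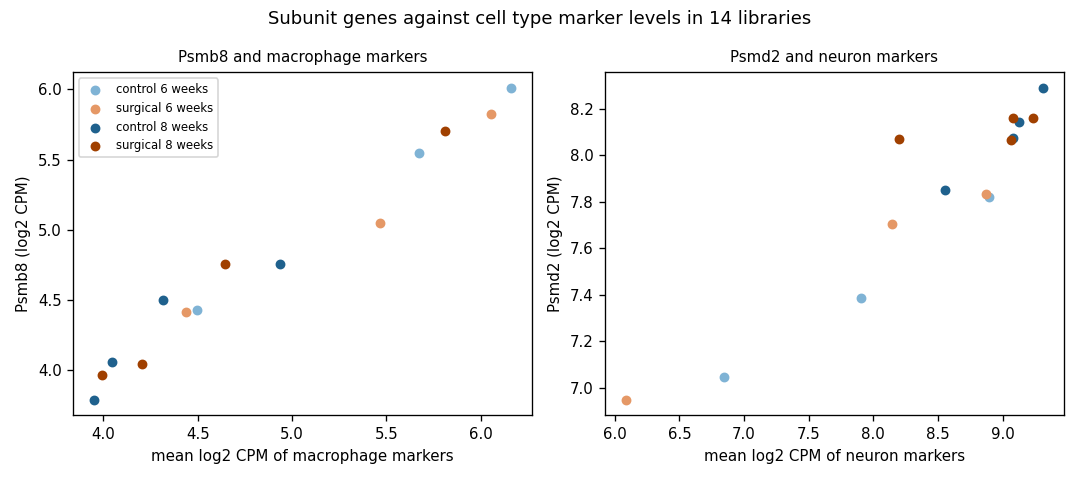
Psmb8 against the mean level of macrophage markers (left) and Psmd2 against that of neuron markers (right), both axes in log2 CPM. Each point is 1 of 14 libraries, coloured by side and time. Libraries with more macrophage marker RNA have more Psmb8 (r = 0.98), and those with more neuron marker RNA more Psmd2 (r = 0.94).

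Genes that work with the proteasome gave no call by edgeR in any comparison. The list of partners, shuttle factors and ubiquitin genes had 29 members tested. At 6 weeks 2 of them had an unadjusted p under 0.05, both lower on the surgical side, against 2.11% of all genes in that direction: Rps27a, a ubiquitin fusion gene, at −1.12 (SE 0.37), and Sem1, a small lid subunit, at −0.74 (SE 0.29). In control ganglia 7 were higher and 5 lower at 8 weeks, where 13.9% of all genes were higher and 17.4% lower, among them Rps27a at −1.98 (SE 0.27) and Sem1 at −1.12 (SE 0.18). Pomp, the maturation factor of the core, was at −0.38 (SE 0.17) between sides at 6 weeks and lower on the surgical side in 3 of 3 rats.

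The list of interferon signalling and class I antigen presentation genes had 23 members tested and no call by edgeR in any comparison. In control ganglia 5 of 23 were lower and 1 higher at 8 weeks at an unadjusted p under 0.05. Of all genes, 17.4% were lower and 13.9% higher with such a p. The fitted difference was negative for 20 of 23 members, with a median of −0.35. Of all genes 53.5% were negative, with a median of −0.06. The direction depends on scale. In TPM the list summed to between 1208 and 1321 in control ganglia at 6 weeks and between 1592 and 1793 at 8 weeks. On the TPM scale the median log2 difference of all genes was 0.45. Gbp2, an interferon-induced GTPase, was at −1.02 (SE 0.27) and Ifit3, an interferon-induced antiviral gene, at −1.45 (SE 0.45). Jak1, a receptor-associated kinase, was at 0.66 (SE 0.17). Psmb8 followed the mean of this list with r = 0.99 over the 14 libraries. Between sides the list had a median of −0.07 at 6 weeks and 0.09 at 8 weeks, with 0 members at an unadjusted p under 0.05 at either time.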

How the data were processed

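For each of 14 libraries the deposited tables give, gene by gene, an estimated count and a TPM value. Per the submitters' processing notes, FastQC, Trim Galore, Salmon and DESeq2 were used; versions and the genome build are not given in the sources used here. The deposited estimated counts were whole numbers, and TPM was made by the authors. Per the labels the molecule was polyA RNA, while their protocol names ribosomal depletion. Letters C and D are exchanged between sample titles and library names, with pairs intact; title letters were used, and the surgical library of rat C, titled replicate 1, was used as replicate 2.

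The main test was edgeR (version 4.0.16, R 4.3.3) on the counts (filterByExpr with a minimum count of 10, TMM, robust quasi-likelihood), two-sided, with Benjamini-Hochberg adjustment over all genes tested and a threshold of 0.05. Sides were compared with rat as a blocking factor, using 14 libraries (6 residual degrees of freedom over both times, 5 by time); times, compared between different rats, left 5. The SE is the log2 difference divided by the square root of F. Levels are log2 CPM with a prior count of 2. Pairs come from the same animal per the labels; deviations of the 2 sides from their group means correlated from −0.41 (rat C) to 0.75 (rat E) over 17035 genes. For the sides, the p-values measure the spread of the within-rat side difference, and for the times the spread of levels between rats, at this number of rats.

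Relative transcript length is the ratio of count to TPM for genes with at least 20 counts in 3 libraries. Other settings were DESeq2 1.42.0, edgeR with DESeq2 size factors, filters, limma 3.58.1 on log2(TPM + 1) and log2(TPM + 0.1), removal of a lowess length trend, marker covariates, no block, and leaving out rats. The scripts were tested on simulated data. Named genes were chosen by role, by smallest p in each direction of a comparison, and by highest or lowest mean TPM of a class; Psmc6, Psmc4, Psmb1 and Psmg1, as well as Psma2 (difference) and Psma3 (both times), were named after their values were seen. Members, lists and rules were chosen with earlier results of these data known. The list of partners and that of interferon genes are not independent evidence.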

Additional observations from a re-analysis of the deposited data

Results flagged for a closer look

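Levels of 18 subunit genes chosen by role or by p, and 4 ratios or class means, were examined for single libraries apart from their group, in log2 CPM, in both groups of 4 rats; groups of 3 were not examined. Psmf1, which encodes a proteasome inhibitor, was at 6.45 in the surgical library of rat C at 8 weeks, while the other 3 rats lay between 5.89 and 5.97. Psmb7, the trypsin-like catalytic subunit, was at 7.73 in the same library, below the other 3 at 7.99 to 8.03. Psmd14, the 19S deubiquitinase, was at 6.67 in the control library of rat C at 8 weeks, above the other 3 at 6.44 to 6.47. In each case the gap to the nearest library took up a larger part of the group's range than Dixon's limit for 4 values. Chance flags about 1 in 20 groups, among 44 examined here. The surgical library of rat C also held the highest muscle marker sum, 31486 TPM; its part in the Psmf1 and Psmb7 values was not tested. Without rats B, C and H, the Psmf1 side difference at 8 weeks was −0.06.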

How the results depend on the processing

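Values are log2 differences. No subunit gene was called in any of the 6 comparisons by edgeR. DESeq2 called 4 of 42 at 6 weeks (44 of 17035 genes in all) and 12 of 42 between the times in control ganglia. In the latter it called 3096 of 16346 genes in all, against 25 by edgeR. Without a replicate block no subunit gene was called in a comparison of the sides (0), and 2 genes of the table were at 6 weeks; no paired fit was possible between the times because the rats differ.

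On log2(TPM + 1) and log2(TPM + 0.1), the core median was −0.189 and −0.190 between sides at 6 weeks, −0.174 and −0.175 at 8 weeks (regulatory −0.158 and −0.160), 0.0248 and 0.0250 for the difference of the sides between times, 0.523 and 0.531 between times in control ganglia (inducible −0.534 and −0.550, regulatory 0.888 and 0.903), and 0.443 and 0.451 in surgical ganglia (regulatory 0.608 and 0.614). The TPM scale shifts all genes between times, by 0.45 in control and 0.21 in surgical ganglia for the first pseudocount. Between sides that shift was 0.16 at 6 weeks and −0.094 at 8 weeks. On these scales Psmb8 at 6 weeks turned to 0.10 and 0.10, Psma3 in control ganglia to 0.0467 and 0.0472, and Psme2 to 0.106 and 0.108 in control and 0.0055 and 0.0056 in surgical ganglia.

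With the length trend removed, the core median was −0.188 between sides at 6 weeks, 0.156 for the difference and 0.0728 in control ganglia; Psme4 (−0.10) and Psmb8 (0.00070) at 6 weeks, and Psmd1 (0.0034) and Psmd2 (0.00012) for the difference, changed sign. Without rats B, C and H the 6-week core median was −0.51; Psme4 (−0.024), Psmd2 (−0.21), Psmb8 (0.13) and Psmb9 (0.11) at 6 weeks, Psmf1 over both times (−0.085) and at 8 weeks (−0.063), and Psmd1 (0.10) and Psmd2 (0.11) for the difference, changed sign.

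With the neuron covariate, core, inducible and regulatory medians were −0.36, −0.17 and −0.049 in control and 0.0083, 0.31 and 0.086 in surgical ganglia; Psmb5 (−0.0037) in control and Psmb8 (0.34) and Psmb9 (0.28) in surgical ganglia changed sign. With the macrophage covariate, chosen after seeing the data, they were −0.40, −0.035 and −0.060 in control ganglia, and core was 0.078 in surgical ganglia; Psmb8 (0.012) and Psmb5 (−0.022) in control, Psmb8 (0.11) and Psmb9 (0.058) in surgical ganglia, Psmb8 between sides at 8 weeks (−0.022), and Psmd1 (0.071) and Psmd2 (0.052) for the difference, changed sign. The causes were not tested.

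Leaving out each rat in turn, the 6-week core median ran from −0.50 (without rat B) to −0.37, Psme4 from −0.020 to 0.29, Psmd2 from −0.21 to 0.34, Psmb8 from −0.49 to 0.14 and Psmb9 from −0.59 to 0.11. At 8 weeks Psmb8 ran from −0.19 (without rat C) to 0.72 and Psmb9 from −0.078 to 0.77. For the difference Psmd1 ran from −0.24 to 0.095 (0.060 without rat C) and Psmd2 from −0.30 to 0.24 (0.030 without rat G). In control ganglia calls ran from 0 to 20 (20 without rat E, 0 without each other rat), the core median from −0.19 to 0.071, the inducible median from −1.44 to −0.74 and the regulatory median from 0.17 to 0.48. In surgical ganglia the core median ran from 0.082 (without rat A) to 0.28 and Psmb8 from −0.92 to 0.019.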
